A study of Mus musculus with 3 samples.

Results

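The genes described here encode the chains of collagen, and they were found as every row whose whole symbol reads Col, a number, a and a number, such as Col1a1. There were 44 such genes among the 43280 listed in each count table, and 37 of them reached a mean of 5 CPM (counts scaled to library size) over the libraries. RNA came from primary mouse cells of skeletal mesenchyme at E15.5, calvarial according to the series, with 1 library for each of 3 genotypes at Ctnnb1, the gene of beta-catenin. The control was beta-catenin fx/fx with no Cre, the cKO was beta-catenin fx/fx; Dermo1-Cre, and the dTF-cKO was beta-catenin fx/dm; Dermo1-Cre. Dermo1 is another name of Twist2, and a Cre placed there acts in mesenchymal cells. Every library thus carried at least 1 floxed allele. An fx/dm library without Cre was not analysed here, so carrying the dm allele and recombination cannot be told apart. The labels leave dm undefined; the known allele of that name yields a protein able to support adhesion but not transcription. Whether embryos were pooled is not given.

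Collagen chains wind in threes into a triple helix, and the makeup of the trimer sets where it is used. Types I, III and V form the fibrils of bone, skin and loose connective tissue. Types II, IX and XI form the thin fibrils of cartilage, although bone-forming cells make type XI chains too. Type IV forms the sheet of basement membranes, and types VII and XVII fasten the epidermis to it. FACIT chains such as type XII sit on the surface of fibrils, and type VI makes beaded filaments around cells. In the skull vault most bone forms directly from mesenchyme, where osteoblasts are heavy producers of type I.

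Values listed in a row below follow the order control, cKO, dTF-cKO. There was 1 library per genotype, which leaves every difference without a replicate check and allows no test of genotype, so every comparison is between libraries, and the intervals in parentheses are 95% intervals for counting error alone. The libraries held from 2678457 to 3634819 counts. Ctnnb1 itself stood at 1026, 745 and 442 CPM. Markers of other tissues moved with genotype. The 13 epidermal markers summed to 152, 22039 and 12603 CPM, with Ivl and Dsg3 at 0 in the control. The 11 osteoblast markers summed to 6853, 1098 and 355 CPM and the 9 fibroblast and mesenchyme markers to 3797, 2924 and 1319 CPM, with none at 0. The 9 skeletal muscle markers summed to 1529, 247 and 10.4 CPM, with Myod1, Myog and Ckm at 0 in the dTF-cKO. Xist had 1233, 0 and 2 counts, so sex-linked expression differed together with genotype, and sex and genotype cannot be told apart. In such bulk RNA, fewer cells of a type and less RNA per cell cannot be told apart, and the part of these shifts in the collagen results was not tested.

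**Figure D1:**
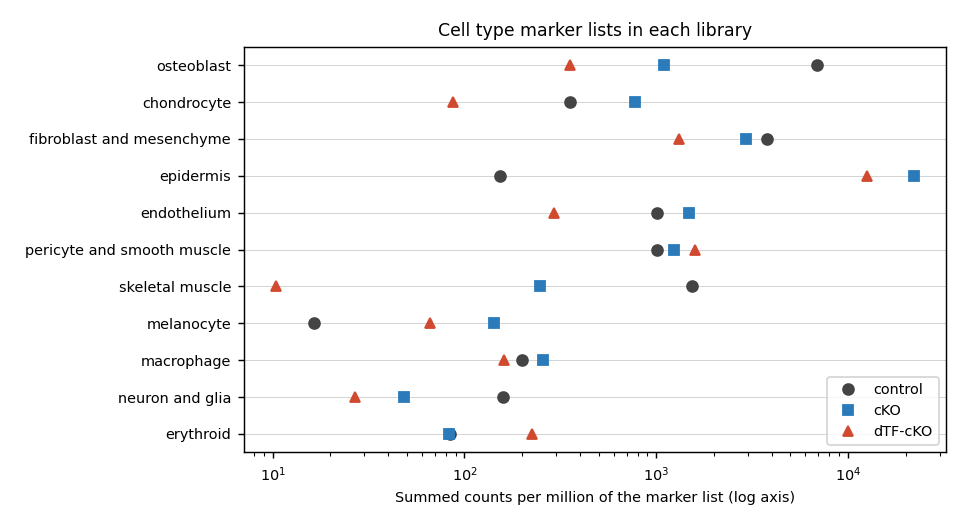
Summed level of each cell type marker list in CPM (log axis), with 1 point per library. Epidermal markers sit far to the right in both Cre-carrying libraries (22039 and 12603 CPM against 152 CPM), while the osteoblast and muscle sums are highest in the control.

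Collagen took a smaller part of the RNA in both Cre-carrying libraries, and what was left had another makeup. The 44 genes held 21.0% of all counts in the control (20.97% to 21.05%), against 6.94% in the cKO (6.91% to 6.97%) and 1.964% in the dTF-cKO (1.95% to 1.98%). Most of that difference lay in type I. Col1a1 and Col1a2 made up 83.8%, 58.3% and 39.01% of the collagen counts. The other 42 genes held 3.41%, 2.90% and 1.20% of all counts. Shares within a library do not depend on how libraries are scaled to each other.

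The classes outside the main fibrils took a larger share of collagen counts in the Cre-carrying libraries. Fibrillar chains held 91.6%, 76.7% and 61.8%. Basement membrane chains held 1.18%, 5.56% and 10.4%. FACIT chains held 2.08%, 4.26% and 10.6%, but with type I left out of the total their share was lower in the cKO than the control, at 10.2% against 12.8%. Cartilage chains took their largest share in the cKO, 5.54% (5.43% to 5.64%), against 1.74% (control) and 3.32% (dTF-cKO). With type I left out they held 10.7%, 13.3% and 5.44%, so their share in the dTF-cKO was then below that of the control. Type VI chains, the beaded filament class, held 2.77%, 5.85% and 8.59%, and with type I left out 17.1%, 14.0% and 14.1%. Transmembrane chains held 0.0622%, 0.597% and 3.25%, and most of their counts in the Cre-carrying libraries, 849 of 1110 and 1815 of 1853, were from Col17a1.

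**Figure D2:**
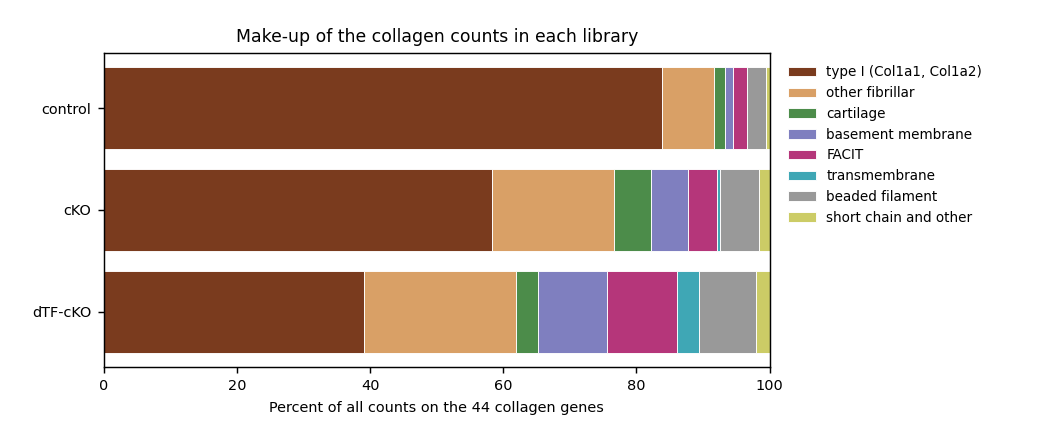
Percent of all counts on the 44 collagen genes taken by each class, with 1 stacked bar per library. Type I shrinks from 83.8% (control) to 58.3% (cKO) and 39.01% (dTF-cKO), and basement membrane and FACIT chains widen to 10.4% and 10.6% in the dTF-cKO.

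Gene by gene, a call of higher or lower required a log2 CPM difference of at least 1, a 2-fold difference, computed with a prior count of 2. Between the cKO and the control, 8 of the 37 measured members were higher and 7 lower. Across all 12127 measured genes, 9.66% were higher and 6.78% lower by this rule. The collagen median was -0.09, against 0.06 for all genes. In the dTF-cKO against the control, 24 members were lower and 5 higher, beside 20.9% lower and 19.5% higher of all genes, with a median of -1.53 against 0.06. In the dTF-cKO against the cKO, 26 were lower and 3 higher, beside 20.5% and 14.5%, with a median of -1.81 against 0.01. The 3 comparisons share libraries and are not separate evidence. Of the 37, Col17a1, Col7a1 and Col4a6 were under 5 CPM in the control and passed the floor through the other libraries alone. Another 4, Col24a1, Col22a1, Col13a1 and Col25a1, were under 5 CPM in the dTF-cKO and likewise passed through the other libraries alone.

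These counts depend on the scale. In an alternative called stromal scaling here, the median difference of 31 fibroblast, endothelial and pericyte markers, 0.45 (cKO) and -1.83 (dTF-cKO) against the control, was set to 0, and so separately was their median of -1.78 in the dTF-cKO against the cKO. Each comparison is thus shifted by its own median, and the 3 shifts do not add up to 1 common scale. The 3 marker lists behind it did not share 1 median. In the cKO against the control the medians were -0.26 (fibroblast), 0.58 (endothelial) and 0.38 (pericyte), so the fibroblast list had the opposite sign. In the dTF-cKO they were -1.28, -1.42 and -2.09, and of the 10 pericyte markers 6 were lower and 2 higher. Stromal scaling gave 6 higher and 13 lower in the cKO against the control. In the dTF-cKO it gave 11 higher and 13 lower against the control, and 10 higher and 9 lower against the cKO. It also put the median of all measured genes at -0.39, 1.89 and 1.79 in these comparisons. Under it, any log2 difference from the control between -1.83 and 0 in the dTF-cKO, or between 0 and 0.45 in the cKO, changes sign. In the dTF-cKO against the control, Col5a1, Col5a2, Col16a1, Col23a1 and Col25a1 stayed lower but by less than 2-fold, and Col4a1, Col9a1, Col9a3, Col12a1, Col18a1 and Col26a1 became at least 2-fold higher. In the cKO, Col9a2 and Col4a5 stayed higher but by less than 2-fold, and Col5a1, Col11a1, Col6a3, Col12a1, Col16a1 and Col8a2 became at least 2-fold lower. Scaling to totals without the collagen genes gave 7 higher and 10 lower in the cKO against the control.

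**Figure D3:**
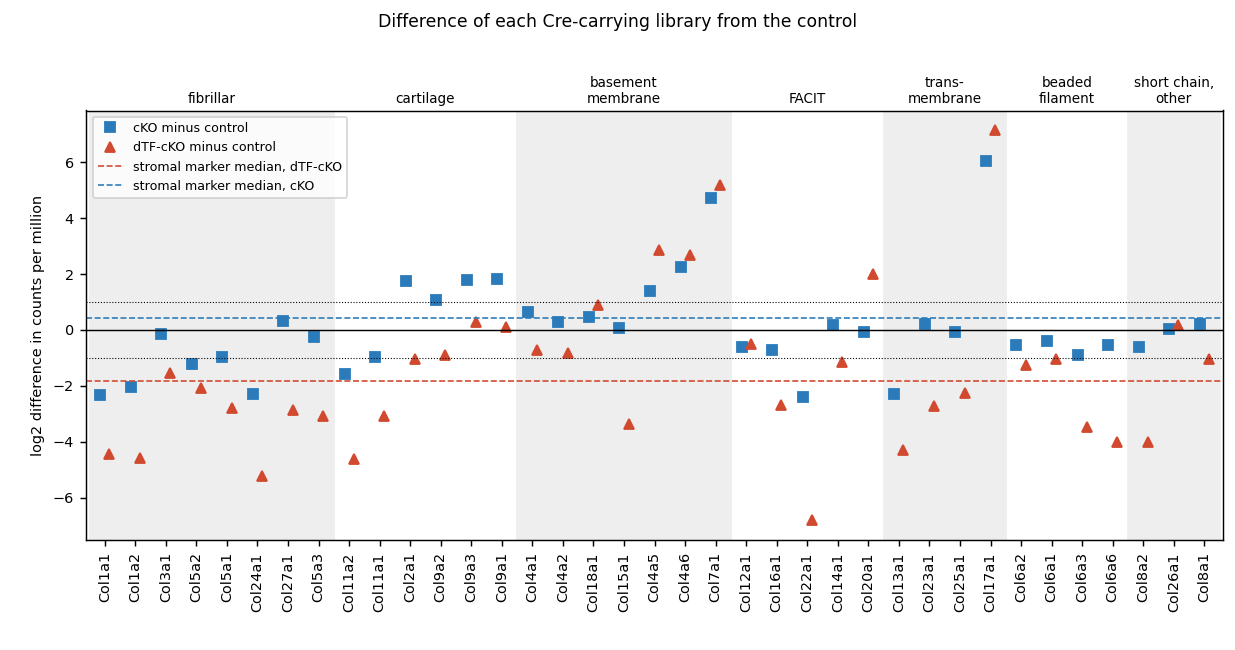
Log2 difference in CPM of each measured collagen gene from the control, with both Cre-carrying libraries shown side by side and genes ordered by class. Dotted lines mark 2-fold, and dashed lines mark the median of the stromal markers (0.45 in the cKO, -1.83 in the dTF-cKO); all fibrillar genes lie below 0 in the dTF-cKO, and Col7a1 and Col17a1 lie far above it in both libraries.

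Of the 8 fibrillar chains, 4 were lower in the cKO than the control and 0 higher, beside 6.78% lower and 9.66% higher of all genes. All 8 were lower in the dTF-cKO, beside 20.9% lower of all genes. Under stromal scaling, however, Col3a1 changed sign there and Col5a1 and Col5a2 fell short of 2-fold. Col24a1, at 3.57 CPM in the dTF-cKO, passed the floor through the other libraries alone, so its call there is not support for a class result. Col1a1 and Col1a2 encode the chains of type I collagen, at chr11:94936224-94953042 and chr6:4504814-4541544, both on the plus strand (mm10). Col1a1 had 114625, 22697 and 5254 CPM. Col1a2 had 64364, 15601 and 2698 CPM. Both were highest in the control and lowest in the dTF-cKO. Against the control, Col1a1 was 5.05-fold lower in the cKO (5.01 to 5.09) and 21.8-fold lower in the dTF-cKO (21.5 to 22.2). For Col1a2 the folds were 4.13 (4.08 to 4.17) and 23.9 (23.3 to 24.4).

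Col3a1, the single chain of type III collagen and abundant in skin, vessels and loose connective tissue, lies at chr1:45311538-45349706 on the plus strand. It had 9560, 8675 and 3314 CPM. It was 1.10-fold lower in the cKO (1.08 to 1.12) and 2.88-fold lower in the dTF-cKO (2.82 to 2.95), where stromal scaling turned its log2 difference from -1.53 to 0.31. Its level thus differed far less between libraries than that of type I. Per kb of transcript, Col3a1 stood at 0.0889, 0.407 and 0.672 of the level of Col1a1. That ratio was 4.58 times that of the control in the cKO (4.499 to 4.67) and 7.56 times in the dTF-cKO (7.35 to 7.78). Col3a1 was above Col1a2 in the dTF-cKO, at 596 against 505 CPM per kb, whereas in the control it stood at 1718 against 12035 CPM per kb.

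Type V chains start fibrils and set their width. Col5a1 had 3294, 1677 and 479 CPM, and Col5a2 had 3505, 1512 and 835 CPM. Their folds lay between those of type I and type III. Col5a2 was 2.32-fold lower in the cKO (2.24 to 2.40) and Col5a1 1.964-fold lower (1.90 to 2.03), just short of the size rule with a log2 difference of -0.97. In the dTF-cKO the order was the other way round, with Col5a1 at 6.87-fold lower (6.50 to 7.28) and Col5a2 at 4.199-fold lower (4.02 to 4.39), log2 differences that stromal scaling brought to -0.95 and -0.23. Col3a1 and Col5a2 are neighbours on chromosome 1, 24.6 kb apart and on opposite strands, and their log2 differences from the control were -0.14 and -1.21 in the cKO.

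Col24a1, a minor fibrillar chain made by osteoblasts, had 567, 90 and 10 counts. It was 4.98-fold lower in the cKO (3.98 to 6.29) and 44.4-fold lower in the dTF-cKO (23.96 to 93.1). Like Col1a1, it was lower in the same order as the osteoblast marker sum. The fibroblast and muscle sums share that order, so it cannot single out a cell type. Col27a1, a fibrillar chain of cartilage, had 105, 132 and 13.9 CPM, and Col5a3, a minor type V chain, 83.6, 70.04 and 9.29 CPM. Both were within 1.5-fold of the control in the cKO. In the dTF-cKO they were 7.51-fold (5.39 to 10.7) and 9.003-fold lower (6.02 to 14.01).

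**Figure D4:**
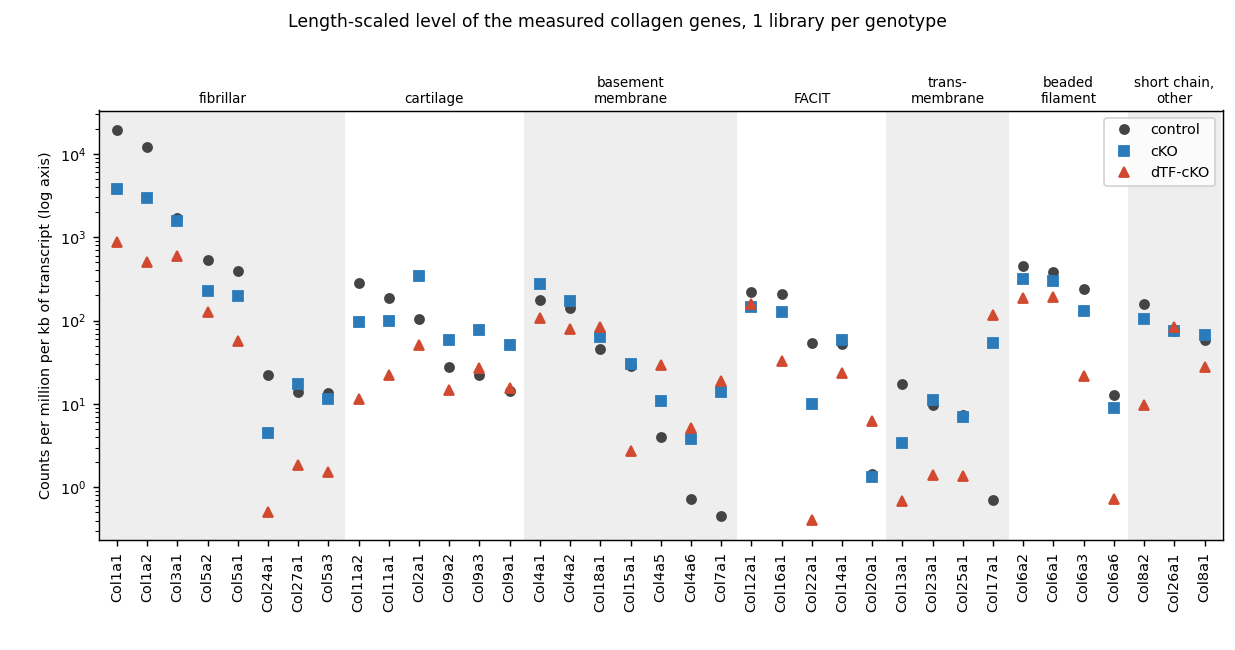
Level of the 37 measured collagen genes in CPM per kb of transcript (log axis), with 1 point per library. Col1a1 leads in all 3 libraries, Col2a1 is highest in the cKO, and Col17a1, Col7a1, Col4a5 and Col4a6 are highest in the dTF-cKO.

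Cartilage collagens split in the cKO, with 4 of 6 measured chains higher than the control and 1 lower, beside 9.66% higher and 6.78% lower of all genes. Col2a1, the chain of type II collagen at chr15:97975602-98004695 on the minus strand, had 528, 1762 and 258 CPM. The 3 chains of type IX decorate type II fibrils. Col9a1 had 55.4, 198 and 60.03 CPM, Col9a2 had 80.8, 169 and 43.6 CPM, and Col9a3 had 67.7, 238 and 82.9 CPM. All 4 genes were highest in the cKO. Their ratios to the control there were 3.34 for Col2a1 (3.17 to 3.52), 3.57 for Col9a1 (3.03 to 4.22), 2.10 for Col9a2 (1.81 to 2.43) and 3.51 for Col9a3 (3.03 to 4.08). The 10 chondrocyte markers summed to 354, 774 and 86.8 CPM, with Snorc at 0 in the control. Of them 8 were highest in the cKO, and the transcription factor genes Sox5 and Sox6 were highest in the control.

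Type XI, which forms the core of the same cartilage fibrils, went the other way. Col11a1 had 1450, 750 and 169 CPM, and Col11a2 had 1533, 515 and 62.5 CPM. Both were lower in the cKO than the control and lower again in the dTF-cKO, the order of the osteoblast, fibroblast and muscle marker sums alike. Col11a2 was 2.98-fold lower in the cKO (2.81 to 3.16) and 24.5-fold lower in the dTF-cKO (21.1 to 28.7). For Col11a1 the folds were 1.93 (1.84 to 2.03), short of the size rule, and 8.56 (7.79 to 9.43). Per kb, Col11a2 stood at 2.75, 0.276 and 0.229 times the level of Col2a1. The ratio was 9.95-fold below the control in the cKO (9.20 to 10.8) and 11.99-fold below it in the dTF-cKO (10.1 to 14.3).

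In the dTF-cKO the type IX chains were within 2-fold of the control, at 1.08 times for Col9a1 (0.877 to 1.34), 0.539 for Col9a2 (0.433 to 0.669) and 1.22 for Col9a3 (1.02 to 1.47). Col2a1 was 2.04-fold lower than the control (1.88 to 2.23), with a log2 difference of -1.03 that became 0.80 under stromal scaling. Against the cKO, all 6 measured cartilage chains were lower, from 2.87-fold for Col9a3 to 8.23-fold for Col11a2, beside 20.5% lower of all genes. Stromal scaling, however, put the log2 differences of Col9a1 and Col9a3 at 0.07 and 0.27 and left only Col11a2 at least 2-fold lower, at -1.25. Col10a1, the collagen of hypertrophic cartilage, stayed below the expression floor with 9, 20 and 0 counts, and 0 counts allow up to 1.07 CPM. With the 0 replaced by 3 counts, it was 6.60-fold lower in the dTF-cKO than the cKO. Its counting interval, which also covers error in the 20 counts, began at 4.89-fold. Exons of Col10a1 overlap those of Nt5dc1 on the other strand, as those of Col9a3 overlap Tcfl5. The strand setting of the counting is not given, so reads of these pairs cannot be told apart.

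Of the 7 measured basement membrane chains, 3 were higher in the cKO than the control and 0 lower, and in the dTF-cKO 3 were higher and 1 lower. Shares of all measured genes were 9.66% higher and 6.78% lower in the cKO, and 19.5% and 20.9% in the dTF-cKO. The 3 higher chains were Col4a5, Col4a6 and Col7a1. Col4a6 and Col7a1 passed the floor only through the Cre-carrying libraries, so their calls are not support for a class result. Col4a1 and Col4a2 are the chains of the type IV trimer found in nearly all basement membranes. Col4a1 had 1177, 1817 and 716 CPM, and Col4a2 had 902, 1103 and 505 CPM. Both were highest in the cKO. The 12 endothelial markers summed to 1008, 1490 and 293 CPM, and 11 of them were highest in the cKO, with Tek highest in the control, but only Vwf differed there from the control by 2-fold. Col4a1 was 1.54 times the control in the cKO (1.48 to 1.61) and 0.609 times in the dTF-cKO (0.577 to 0.642), within the size rule. The genes lie head to head on chromosome 8, Col4a1 at chr8:11198423-11312826 on the minus strand and Col4a2 at chr8:11312805-11449287 on the plus strand, and their annotated starts overlap by 22 bases. Their ratio per kb was 1.27, 1.61 and 1.38.

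The anchoring chains of the epidermis were nearly absent from the control. Col17a1, a transmembrane collagen of the hemidesmosome that anchors basal keratinocytes, lies at chr19:47646344-47692094 on the minus strand and had 14, 849 and 1815 counts. Col7a1, which forms the anchoring fibrils below the epidermis, lies at chr9:108953586-108984875 on the plus strand and had 15, 359 and 490 counts. Both were far higher in the Cre-carrying libraries. Col17a1 was 76.7 times the control in the cKO (45.5 to 141) and 166 times in the dTF-cKO (98.4 to 304). Col7a1 was 30.3 times (18.1 to 54.6) and 41.7 times (25.05 to 75.1). The 13 epidermal markers were split, with 7 highest in the dTF-cKO and 6 in the cKO. Among them, the basal keratin Krt5 had 86, 5759 and 12663 counts, and Krt1, a keratin of the layers above, had 16, 16591 and 102 counts. Trp63 had 2, 275 and 225 counts. Col17a1, Col7a1 and Krt5 were all highest in the dTF-cKO, and Krt1 and Trp63 were highest in the cKO.

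Col4a5 and Col4a6, type IV chains of epidermal and other specialised basement membranes, lie head to head on the X chromosome, 1308 bases apart. Col4a5 had 26.0, 70.04 and 194 CPM, and Col4a6 had 4.76, 25.1 and 34.3 CPM. Both were lowest in the control, the library with Xist counts and with the lowest epidermal marker sum. Col4a5 was 2.69 times the control in the cKO (2.09 to 3.48) and 7.44 times in the dTF-cKO (5.96 to 9.38), and Col4a6 was 5.28 times (3.08 to 9.57) and 7.21 times (4.28 to 12.9). Relative to Col4a1 in the same library, Col4a5 was 12.2 times the control in the dTF-cKO (9.75 to 15.3).

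Col15a1 and Col18a1, which link basement membranes to the surrounding matrix, parted in the dTF-cKO. Col18a1 had 257, 352 and 474 CPM, and Col15a1 had 149, 157 and 13.9 CPM. Col15a1 was 10.7-fold lower in the dTF-cKO than the control (7.74 to 15.2), whereas Col18a1 was 1.84 times the control (1.69 to 2.005).

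Of the 5 measured FACIT chains, 1 was lower in the cKO than the control and 0 higher, beside 6.78% lower and 9.66% higher of all genes. In the dTF-cKO 3 were lower and 1 higher, beside 20.9% and 19.5%. Of those lower, Col22a1 was at 3.57 CPM there and passed the floor through the other libraries alone. Its call in the dTF-cKO is thus not support for a class result. Col12a1, a fibril-associated chain of dense connective tissue and bone surfaces, lies at chr9:79598991-79718831 on the minus strand and had 2533, 1663 and 1809 CPM. It was within 2-fold of the control in both, at 0.656 times in the cKO (0.634 to 0.680) and 0.714 times in the dTF-cKO (0.690 to 0.739), where stromal scaling turned its log2 difference from -0.48 to 1.35. Its ratio to Col1a1 was 3.32 times the control in the cKO (3.20 to 3.44) and 15.6 times in the dTF-cKO (15 to 16.2). Col16a1, a FACIT chain of several connective tissues, had 1087, 659 and 168 CPM and was 6.46-fold lower in the dTF-cKO (5.87 to 7.12), a log2 difference of -2.69 that became -0.85 under stromal scaling. Col14a1, which binds type I fibrils, had 341, 383 and 153 CPM and was 2.24-fold lower in the dTF-cKO (2.002 to 2.50), a log2 difference of -1.16 that became 0.68 under stromal scaling.

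Col22a1, a chain of the junction between muscle and tendon, had 1674, 251 and 10 counts. It was 5.27-fold lower in the cKO (4.62 to 6.05) and 131-fold lower in the dTF-cKO (71.1 to 274). The muscle marker sum was lower in the same order, as were the osteoblast and fibroblast sums. Col20a1, with 23, 17 and 78 counts, was the FACIT chain that was higher in the dTF-cKO, at 4.33 times the control (2.69 to 7.23).

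Transmembrane chains other than Col17a1 were low. Col13a1, found where cells contact matrix, had 194, 30 and 6 counts and was 5.11-fold lower in the cKO (3.47 to 7.78) and 25.3-fold lower in the dTF-cKO (11.4 to 69.8). Col23a1, at 55.1, 63.3 and 7.86 CPM, and Col25a1, at 19.6, 18.4 and 3.57 CPM, were within 2-fold of the control in the cKO. In the dTF-cKO they were 7.01-fold (4.502 to 11.4) and 5.48-fold lower (2.81 to 11.9), log2 differences that became -0.88 and -0.42 under stromal scaling.

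Chains that assemble into 1 trimer did not always move together. Type VI is built from the chains of Col6a1, Col6a2 and Col6a3. Col6a1 had 1586, 1214 and 777 CPM, Col6a2 had 1779, 1237 and 747 CPM, and Col6a3 had 2434, 1311 and 220 CPM. Per kb, Col6a3 stood at 0.622, 0.438 and 0.115 of the level of Col6a1, and its ratio in the dTF-cKO was 5.43-fold below the control (4.93 to 5.97). Col6a1 and Col6a2 kept near each other, at ratios per kb of 0.859, 0.945 and 1.002. They are neighbours on chromosome 10, and Col6a3 lies on chromosome 1. Against the control, Col6a3 was 11.1-fold lower in the dTF-cKO (10.2 to 12.04), and Col6a1 and Col6a2 were 2.04-fold (1.94 to 2.15) and 2.38-fold lower (2.27 to 2.50), but 0.81 and 0.58 higher on the log2 scale under stromal scaling. Col6a6, a chain that resembles Col6a3, had 406, 222 and 18 counts and was 17.7-fold lower in the dTF-cKO (11.03 to 30.1).

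Type VIII is a short-chain collagen of vessel walls and of the cornea. Col8a1 had 297, 347 and 143 CPM and Col8a2 had 690, 451 and 41.8 CPM. Per kb, Col8a1 stood at 0.365 times the level of Col8a2 in the control (0.340 to 0.393), 0.654 times in the cKO (0.601 to 0.711) and 2.90 times in the dTF-cKO (2.35 to 3.59), so the order of the chains was the other way round in the dTF-cKO. Col8a2 was 16.5-fold lower in the dTF-cKO than the control (13.7 to 20.03), and Col8a1 2.08-fold lower (1.85 to 2.34), which became 0.78 higher on the log2 scale under stromal scaling. The ratio per kb of Col11a1 to Col11a2 was 0.666, 1.03 and 1.91, also largest in the dTF-cKO, while that of Col1a1 to Col1a2 was 1.61, 1.31 and 1.76. Col26a1, outside the main classes, had 203, 207 and 228 CPM and was 1.12 times the control in the dTF-cKO (1.006 to 1.25).

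**Figure D5:**
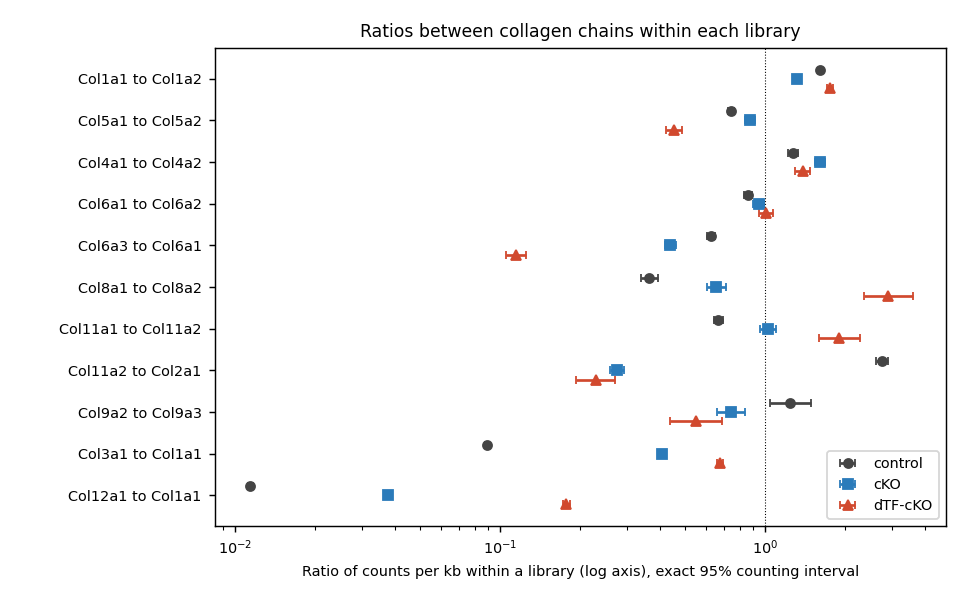
Ratio between collagen chains of their counts per kb of transcript within each library (log axis), with exact 95% counting intervals as bars. The type I, type IV and Col6a1 to Col6a2 ratios stay close together, while Col6a3 to Col6a1, Col8a1 to Col8a2 and Col11a2 to Col2a1 spread apart.

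For partner chains whose levels parted, the sequences upstream of their starts can be set side by side. RefSeq promoter windows (GRCm38.p6) matched 35 of the 44 genes, and each stretch ends 5′ of every annotated exon, which for Col6a1 is 124 bases before the RefSeq start. The Col11a2 stretch ends at its RefSeq start, which lies upstream of its GENCODE start at chr17:34039437. Capitals mark CCAAT or GGGCGG on either strand and TATAAA on the gene strand. Col6a1 is chr10:76726169-76726294 on the minus strand, Col6a3 chr1:90843972-90844121 minus, Col8a1 chr16:57754738-57754887 minus, Col8a2 chr4:126286643-126286792 plus, Col11a1 chr3:114030390-114030539 plus and Col11a2 chr17:34038988-34039137 plus.
Col6a1: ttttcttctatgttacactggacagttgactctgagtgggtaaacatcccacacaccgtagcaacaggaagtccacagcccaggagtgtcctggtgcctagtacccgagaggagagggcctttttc
Col6a3: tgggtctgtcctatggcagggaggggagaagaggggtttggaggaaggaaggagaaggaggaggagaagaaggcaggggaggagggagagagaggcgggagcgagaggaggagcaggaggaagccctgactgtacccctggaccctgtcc
Col8a1: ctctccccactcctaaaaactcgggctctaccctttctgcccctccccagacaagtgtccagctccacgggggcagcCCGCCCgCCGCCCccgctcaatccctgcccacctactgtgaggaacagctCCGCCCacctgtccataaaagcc
Col8a2: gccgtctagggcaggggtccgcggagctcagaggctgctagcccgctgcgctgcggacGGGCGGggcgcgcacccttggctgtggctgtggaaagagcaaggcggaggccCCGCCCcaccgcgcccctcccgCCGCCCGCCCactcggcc
Col11a1: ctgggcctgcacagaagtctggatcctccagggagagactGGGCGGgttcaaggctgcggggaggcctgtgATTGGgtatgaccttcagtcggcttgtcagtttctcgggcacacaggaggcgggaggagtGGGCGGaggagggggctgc
Col11a2: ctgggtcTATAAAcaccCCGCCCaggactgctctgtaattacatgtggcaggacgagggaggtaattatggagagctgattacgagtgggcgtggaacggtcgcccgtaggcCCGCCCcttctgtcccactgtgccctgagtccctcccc
The type VI stretches held none of these letters. Col8a1 held GGGCGG at 3 places and Col8a2 at 4, the last 2 overlapping. Col11a1 held GGGCGG at 2 places and CCAAT at 1, and Col11a2 GGGCGG at 2 places and TATAAA at 1. The 35 matched genes gave 38 windows, as 3 genes had 2 each, so the shares below are of windows and not of genes. The 9 genes with none included Col1a1, Col2a1, Col5a2 and Col12a1. Over the 250 bases before the start, GGGCGG was in 57.9% of 38 collagen windows and in 32.7% of all 32851 windows. CCAAT was in 34.2% and 33.8%, TATAAA in 13.2% and 7.59%, and TGTGGT on either strand, not marked in capitals, in 7.89% and 14.0%. A match is a description of these letters only.

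Genes that modify, secrete, cross-link, bind and cut collagen made a list of 49, of which 46 were measured. In the cKO against the control 12 were lower and 0 higher (median -0.62), beside 6.78% lower and 9.66% higher of all genes. In the dTF-cKO against the control 27 were lower and 2 higher, beside 20.9% and 19.5%, and the median of -1.33 lies in the range that changes sign under stromal scaling. In the dTF-cKO against the cKO 16 were lower and 2 higher (median -0.65), beside 20.5% and 14.5%. Serpinh1, the chaperone of the collagen helix, had 4289, 1777 and 1704 CPM. P4hb and P4ha1, subunits of the prolyl hydroxylase that stabilises the helix, were lowest in the cKO, P4hb at 1373, 963 and 1909 CPM and P4ha1 at 359, 214 and 505 CPM. Both stood above the control in the dTF-cKO, where Col1a1 was 21.8-fold below it. The 7 genes of propeptide processing were all at least 2-fold lower in the dTF-cKO than the control on the main scale. Among them were Pcolce, an enhancer of that cleavage, at 891, 351 and 194 CPM, and Adamts2, which cuts the amino end, at 305, 175 and 47.2 CPM. Under stromal scaling not all 7 stay so. Their log2 differences of -2.20 and -2.67 would fall short of 2-fold, and that of Bmp1, -1.60, lies in the range that changes sign. The collagen receptors Ddr1, typical of epithelia, and Ddr2, typical of mesenchyme, went opposite ways. Ddr1 had 72.2, 139 and 384 CPM and Ddr2 had 206, 144 and 26.8 CPM.

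Besides Col10a1, 6 genes were below the floor. Col4a3 and Col4a4, chains of kidney basement membrane, had at most 7 counts in a library. Col28a1 had 9, 6 and 0 counts, Col6a5 6, 1 and 3, and Col19a1 and Col6a4 at most 1 count. With its 0 again replaced by 3 counts, Col28a1 was 2.35-fold lower in the dTF-cKO than the control. Its counting interval, which also covers error in the 9 counts, began at 1.55-fold. Differences of the other 5 genes were not detectable at this depth.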

How the data were processed

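The authors deposited 1 table of raw read counts per library, whole numbers per gene. PolyA RNA went through an Ion Total RNA-Seq library kit per the labels' protocols, and the submitters' processing notes name mm10. Aligner, counter, annotation and strand setting: not given in the sources used here.

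Counts were scaled with TMM factors (0.984, 1.06 and 0.963 for control, cKO and dTF-cKO) in edgeR 4.0.16 under R 4.3.3, with a prior count of 2 in log2 CPM and a floor at a mean of 5 CPM. Folds are ratios of scaled counts, taken before the prior count is added, with Clopper-Pearson 95% intervals; changes in a chain ratio carry intervals by a normal approximation on the log scale. Reads copied by PCR and counted with no molecular identifiers are not separate molecules, so intervals and floors describe counting error alone. A count of 0 was taken to allow 3 counts, or 0.839, 1.06 and 1.07 CPM. Positions and transcript lengths (the transcript with the longest coding sequence) came from GENCODE vM21 on GRCm38, which matched all 44 genes. Annotated exons of 13 of them overlap another gene. The size rule was tested on Poisson counts simulated for the cKO and the control over 12126 genes, with no biological spread and no error in scaling. Only a small part of these genes was altered, in equal numbers at each size, so those percentages rest on few genes. The rule called 96% of genes made 4-fold lower and 100% of those made 4-fold higher. It called 42% and 40% of those made 2-fold lower and higher, and 0.285% of unchanged genes. Shifts in scaling such as those between these libraries were not simulated. The collagen genes, classes, gene lists and alternatives were chosen with earlier results of these data known. Any collagen gene could be named, as could Ctnnb1, up to 4 genes of each pathway role by mean CPM, and markers that were at 0 or most abundant. Xist and a few other markers, such as Trp63, were chosen after their values were seen. Alternatives were library totals, DESeq2 1.42.0 size factors, totals without collagen genes, stromal scaling, other prior counts, floors and size rules.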

Additional observations from a re-analysis of the deposited data

How the results depend on the processing

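With 1 library per genotype no library could be left out. No paired analysis was possible because each group holds 1 sample and the labels carry no replicate numbers. Stromal scaling, which sets the stromal marker median to 0 in each comparison by itself, moved the most values. It moved the lower count in the cKO against the control from 7 to 13, the higher and lower counts in the dTF-cKO against the control to 11 and 13, and those in the dTF-cKO against the cKO to 10 and 9. It turned the dTF-cKO median from -1.53 to 0.31 and moved that against the cKO from -1.81 to -0.026. It moved the cKO median of -0.09 against the control down by 0.45, the size of the stromal median there. It also reversed 13 single differences. Against the control these were Col3a1 at 0.31, Col2a1 at 0.80, Col14a1 at 0.68, Col6a1 at 0.81, Col6a2 at 0.58 and Col8a1 at 0.78. Against the cKO they were Col3a1 at 0.39, Col9a1 at 0.071, Col9a3 at 0.27, Col4a1 at 0.44, Col4a2 at 0.65, Col14a1 at 0.46 and Col8a1 at 0.50. No other alternative reversed a difference of 2-fold or more. The median of the dTF-cKO against the cKO was -1.94 with library totals, -2.01 with totals without collagen genes, -1.66 with a prior count of 10 and -1.61 with no floor. Against the control it was -1.87 with totals without collagen genes and -1.20 with no floor. A 1.5-fold rule gave 13 lower in the cKO against the control, and a 3-fold rule 1 higher in the dTF-cKO against the cKO. With Col1a1 and Col1a2 left out of both sides, the other collagen genes held 4.13%, 3.02% and 1.21% (control, cKO, dTF-cKO). Of the collagen counts, fibrillar chains then held 48.3%, 44.1% and 37.4%, cartilage chains 10.7%, 13.3% and 5.44%, basement membrane chains 7.29%, 13.3% and 17%, and FACIT chains 12.8%, 10.2% and 17.4%. The gain of FACIT chains in the cKO was thus a loss once type I was left out, and so was the gain of cartilage chains in the dTF-cKO. Per kb of transcript, fibrillar chains held 91.9% (control) and 76.4% (cKO), cartilage chains 6.35% (cKO) and 4.05% (dTF-cKO), basement membrane chains 1.07%, 4.95% and 9.35%, and FACIT chains 1.45%, 2.98% and 6.27% in the 3 libraries. All other counts of members under these alternatives were within 1.5 times the values reported.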
